A study of Mus musculus with 12 samples.

Results

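The clustered protocadherins of the mouse are 3 neighbouring gene arrays, alpha, beta and gamma, on chromosome 18. CpG sites on chromosome 18 between positions 36900000 and 37900000 (GRCm38) were taken, and those lying in an array gene or within 500 bp before its start were kept as members. Genes were recognised by symbols beginning Pcdha, Pcdhb or Pcdhg. This gave 447 of the 421177 sites in the table, over 58 of the 49997 genes in the RefSeq gene table used (14 alpha, 22 beta and 22 gamma genes). The same region held 43 further sites that fell outside these genes.

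Each alpha and gamma gene starts with its own variable exon, which codes for the extracellular cadherin repeats, the membrane span and part of the cytoplasmic tail, and is spliced to constant exons shared by all genes of that array, whereas each beta gene is a single exon. Every variable exon has its own promoter, and neurons choose a few of them per cell, a choice that involves CTCF and cohesin looping promoters to distant enhancers, and DNA methylation laid down by Dnmt3b. The proteins bind copies of themselves on neighbouring cells and so give neurons a means of telling self from non-self. The genes at the end of the alpha and gamma arrays, Pcdhac1, Pcdhac2, Pcdhgc3, Pcdhgc4 and Pcdhgc5, are called C-type and are not subject to the same random choice in most neurons. The conserved promoter element bound by CTCF stands before most variable exons but not before Pcdhac2, Pcdhb1, Pcdhgc4 or Pcdhgc5. The arrays are best known from the brain, and here they were read in heart muscle.

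Reduced representation bisulfite sequencing, which reads methylation at CpG sites near cuts of the enzyme MspI, was applied to left ventricle DNA of 12 wild-type FVB/N mice aged 3 weeks. Mothers (FVB/NJ) were put on a high-fat diet, abbreviated HFD, or on regular chow, abbreviated RD, at 6 weeks of age, stayed on it throughout, and were mated 8 weeks later to sires fed RD. The HFD group held 3 female and 3 male offspring and the RD group 4 females and 2 males. All offspring were taken at weaning, the number of mothers is not given, and mice of a group may be littermates, so p-values measure the spread between these mice.

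The table gave 1 methylation level per site and mouse, in percent, without read counts, so the depth behind each level is unknown. Each mouse had values at 385299 to 417081 sites. Of the 447 protocadherin sites, 376 had a value in all 12 mice, and 420 (HFD male 4) to 447 (RD male 1) had one in a given mouse. Library numbers ran from 2 to 8 in HFD and from 9 to 14 in RD, so that in every diet comparison here the order of the libraries and the diet cannot be told apart. Variable exons resemble each other in sequence, and how reads matching several of them were treated is not given in the sources used here. A level from bulk tissue cannot tell apart a share of cells from a share of gene copies. Methylation gives no expression by which to check the tissue label. Of 8 cardiomyocyte genes, the start windows of 3 were measured, at 6.51% (Actn2), 54.4% (Myl2) and 2.29% (Ryr2), and of 8 neuron genes 5 were measured, at 2.13 to 4.21%.

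Protocadherin variable exons sat at intermediate methylation. For every gene an exon unit was defined as the window from 500 bp before to 2500 bp after its 5′ end, described where at least 3 sites had values in all mice. No strand is used for chromosome 18. There, and for all other genes without a known strand, the lower-coordinate end of each gene was taken as its 5′ end. Units of minus-strand genes among these lie at the 3′ end instead, and they are part of the values over other and all units. Of the 58 protocadherin genes, 35 had any site in their unit and 30 had enough of them (6 alpha, 5 beta and 19 gamma). The 23 genes with no site were 8 alpha, 14 beta and 1 gamma gene. The other 5, Pcdhb15, Pcdhb20, Pcdhb21, Pcdhga1 and Pcdhgb6, had fewer than 3 complete sites, and their sites averaged between 32.3% (Pcdhgb6) and 75.4% (Pcdhb20). Of the 447 sites, 408 lay in a unit, 27 between units and 12 in the constant parts, and in 7 places rows lay 1 bp apart. The mean level over the 12 mice lay between 20 and 80% in 24 of the 30 units (80%), against 12.8% of 10472 units of other genes, of which 72.9% lay under 10%. The median unit stood at 44.3%, and the median over all 10502 units at 2.70%. Among single sites the gap was smaller, with 242 of 376 protocadherin sites (64.4%) at 20 to 80% and 19.8% of all autosomal sites. This share was 48.8% in alpha, 58.5% in beta and 74.3% in gamma. With shorter windows, 500 bp to each side of the 5′ end, 64.7% of 17 protocadherin units and 7.38% of all units fell in that range.

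**Figure D1:**
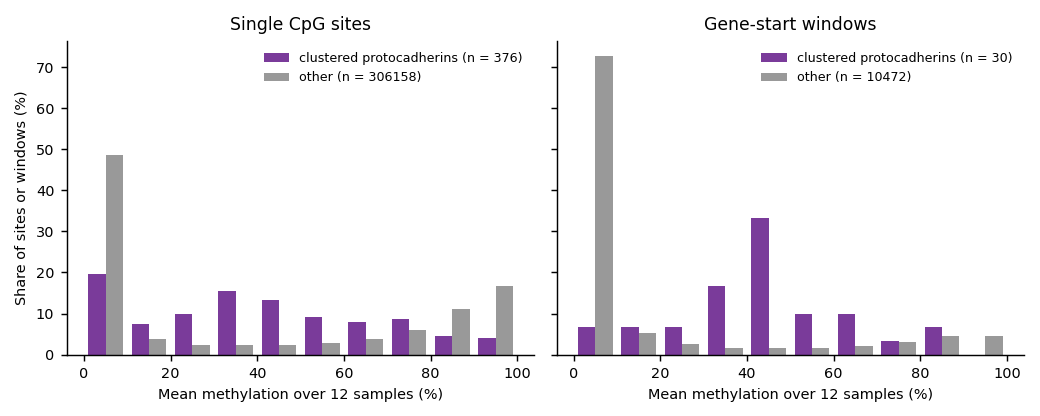
Share of single CpG sites (left) and of exon units (right, titled gene-start windows) by mean methylation over 12 mice, in percent, for clustered protocadherins and for the rest. Of other units 72.9% lie under 10%, and 24 of the 30 protocadherin units lie between 20 and 80%.

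The 3 arrays differed in level. Averaged over sites, the alpha array stood at 35.5% ± 1.10 (SD, n = 12), the beta array at 53.0% ± 2.55 and the gamma array at 39.7% ± 1.12. Single mice ranged from 33.8 to 37.6% in alpha, from 47.3 to 56.5% in beta and from 37.8 to 41.4% in gamma, so the beta values of all mice lay above every alpha and gamma value, and the lowest gamma value lay just above the highest alpha value. Over units other than C-type, those of the alpha type stood at 45.9% ± 2.38, gamma A at 44.7% ± 1.49 and gamma B at 45.0% ± 3.02, with ranges that overlapped (44.1 to 52.6%, 42.5 to 47.3% and 39.2 to 49.6%). The beta range of 47.3 to 56.5% overlapped those of the alpha type and of gamma B and began just above that of gamma A. The full separation of beta thus held for the whole arrays, C-type and between-unit sites included. These are descriptions over few genes. The beta value rests on 41 sites, 2 of them in Pcdhb20, which had too few to be described as a unit. The order also changed with distance from the start. Within 500 bp past it the beta type stood at 22.7% (10 sites of 2 units), below the alpha type (33.2%), gamma A (33.7%) and gamma B (32.3%). At 500 to 1000 bp beta stood at 79.0% (7 sites of 2 units) and gamma A at 44.9%. Differences between arrays were thus not separated from differences in the distances read.

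**Figure D2:**
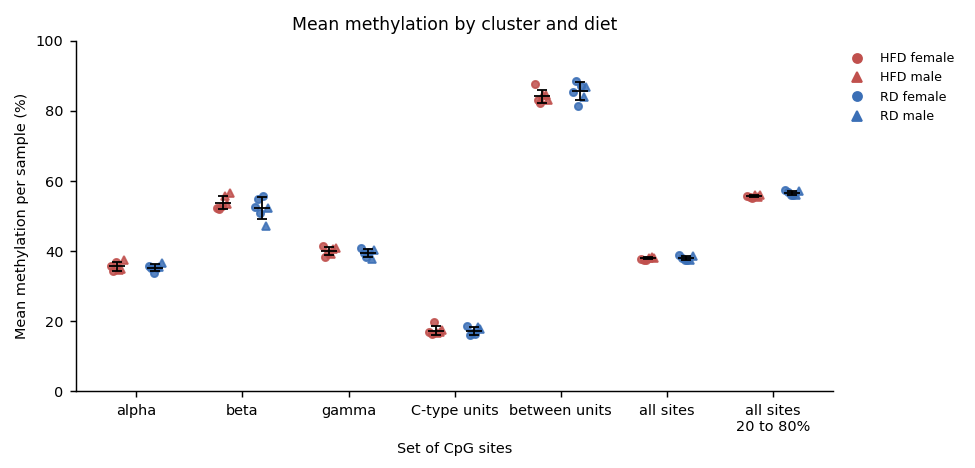
Mean methylation in percent for each of the 12 mice, by array and class of site, coloured by maternal diet and shaped by sex, with the mean and SD of each diet. The whole beta array lies above the whole alpha and gamma arrays in every mouse, C-type units lie lowest of the sets drawn, and the diets overlap in every protocadherin set.

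In the alpha array, which codes for receptors whose shared tail binds cytoskeletal partners, the units of the first genes lay above those of the C-type genes. Pcdha2 was highest at 54.8% and also the most variable of the array (SD 8.95, n = 12), from 39.3% in the lowest mouse through a median of 54.8% to 68.8%. All 6 of its sites lay 2310 to 2449 bp past the gene's start, so the promoter itself was not read there. Pcdha1 followed at 50.5% ± 3.63 over 14 sites, with mice between 44.0 and 56.5%. Pcdha4 stood at 42.9% ± 3.28 and Pcdha5 at 32.1% ± 8.50. The ranges of Pcdha1 and Pcdha2 overlapped, and so did those of Pcdha2 and Pcdha4.

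In the beta array, whose single-exon genes code for receptors without a shared tail, the 5 units fell into a higher and a lower set. Pcdhb2 was highest at 81.5% ± 1.94 (lowest mouse 77.8%, highest 85.2%), followed by Pcdhb17 at 76.0% ± 6.16 (59.6 to 83.7%). Pcdhb22 stood at 63.7% and varied most of the array (SD 8.77), from 46.9 to 80.8%. Pcdhb7 was lowest at 28.3% ± 5.79, from 17.8 to 37.1%, and Pcdhb1, the first gene of the array, stood at 35.3% ± 3.42, from 29.5 to 40.5%. The lower pair did not overlap with the upper 3 in any mouse, while Pcdhb7 and Pcdhb1 overlapped with each other. The units were read at different distances from the start, so the 2 sets were not separated from distance. In Pcdhb1, 9 sites within 500 bp of the start averaged 17.5% and 4 sites 893 to 944 bp past it averaged 75.3%. Of the 8 sites of Pcdhb2, 7 lay further than 500 bp, and all 4 of Pcdhb17 lay further than 1000 bp.

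In the gamma array, whose genes alternate between A and B types before the C-type genes, 13 of 19 units lay between 30 and 60%. Pcdhga7 stood apart at 89.4% ± 1.87 (86.3 to 92.7%), read at 4 sites 1452 to 1499 bp past the start. Pcdhgb8 was second at 66.6% ± 3.38 (61.8 to 72.6%), from 3 sites. Pcdhga2 lay just under the intermediate range at 19.7% ± 3.66 (14.2 to 27.3%). Pcdhgb5 varied most (48.5%, SD 8.93, from 30.4 to 62.6%) and Pcdhga12 least among the units at intermediate levels (53.3%, SD 1.34, from 51.3 to 55.0%).

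**Figure D3:**
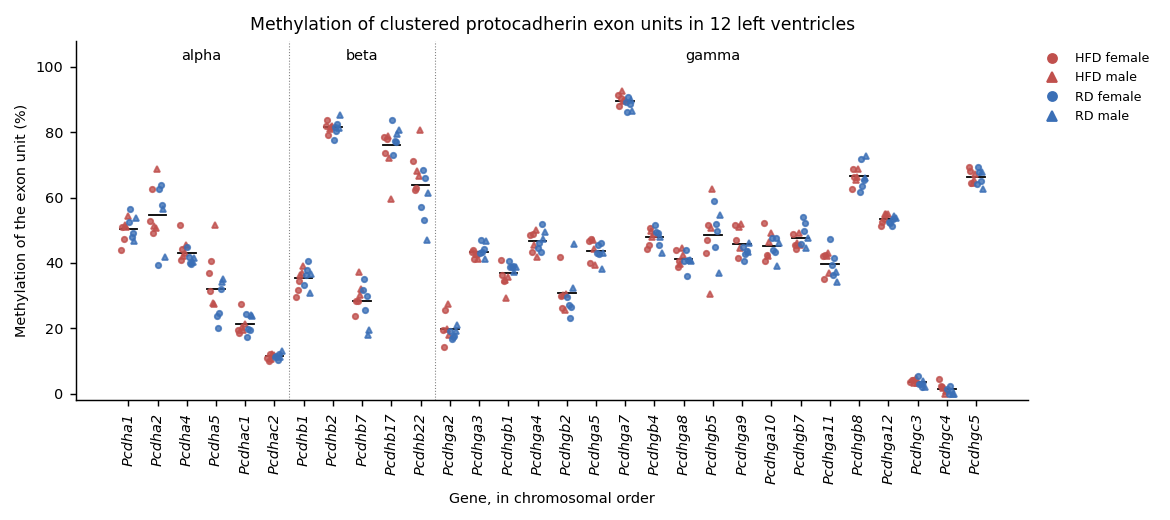
Mean methylation in percent of each of the 30 exon units in gene order, 1 point per mouse, coloured by diet and shaped by sex, with the mean over the 12 mice. Pcdhga7 and Pcdhb2 lie above 80%, and Pcdhgc3 (3.52%) and Pcdhgc4 (1.35%) lie lowest.

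The C-type genes departed from this pattern. Their 5 units averaged 17.3% ± 1.10 over sites, against 46.3% ± 1.45 for all other protocadherin units, and the ranges over mice were far apart (16.0 to 19.7% and 43.4 to 48.9%). Pcdhgc4, known to be needed for the survival of interneurons, was lowest at 1.35% ± 1.39, with mice from 0 to 4.60% at 3 sites. Pcdhgc3, which shapes dendrites of cortical neurons, stood at 3.52% ± 1.04, from 1.97 to 5.50% over 26 sites, none of which averaged above 12.7%. Pcdhac2, known from the spacing of serotonergic axons, stood at 11.4% ± 0.863, from 9.98 to 12.96%. Pcdhac1 stood at 21.3% ± 2.99, from 17.2 to 27.6%. It alone had complete sites before the start (14 sites, 5.15%). Its sites stood at 27.5% in the first 500 bp and at 47.0% at 1500 to 2000 bp. Units other than C-type stood at 32.3% and 51.6% at these distances. Pcdhgc5, the last gene of the gamma array, was highest at 66.3% ± 2.25, from 62.5 to 69.5% over 9 sites.

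Within Pcdhac1, Pcdhac2 and Pcdhgc5 the level differed along the sequence, while no site averaged above 12.7% in Pcdhgc3 or above 2.54% in Pcdhgc4. In Pcdhgc3 the last 6 complete sites, at 37807892 to 37807964, averaged 8.03% ± 3.73, and the 16 before them, at 37807307 to 37807483, averaged 2.08% ± 0.647. Stretches were divided after seeing the levels, so their separation is a description. In Pcdhac1, 15 sites between 214 bp before and 19 bp after the start averaged 5.01% ± 1.20, 8 sites 94 to 216 bp past it averaged 14.7% ± 4.71, and 4 sites 242 to 263 bp past it averaged 57.4% ± 8.24. In Pcdhac2, 25 sites with complete values 283 to 1087 bp past the start averaged 3.96% ± 0.696, and the next 4, up to 1370 bp, averaged 57.8% ± 2.83. Further into Pcdhac1, 3 sites 331 to 401 bp past the start averaged 30.02% ± 10.3 and 5 sites 1847 to 1901 bp past it 47.0% ± 5.16. In Pcdhgc5, which has no site nearer than 250 bp to its start, the first 3 sites averaged 44.8% ± 4.65 and the last 6 averaged 77.1% ± 3.18.

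Levels also differed with distance from the start. Over units other than C-type, the mean was 32.3% ± 1.74 within 500 bp past the start (91 sites of 14 units), 51.7% ± 2.63 at 500 to 1000 bp and 64.0% ± 0.848 at 1000 to 1500 bp (50 sites of 11 units). It was lower further on, at 51.6% ± 3.76 and then 46.2% ± 2.50. Different genes fill different bins, so the change was also read within units. Counting sites with values in all mice, those at 500 bp or more past the start were higher than those in the first 500 bp in all 13 units that had both (6 gamma A, 4 C-type, 2 beta and 1 alpha), by a median of 22.4 points. Counting every site with a value, 16 units had both, and the later sites were higher in 15 and lower in Pcdha5 (22.2% at 2 sites after 32.1% at 5). The other added units were Pcdhga1 (21.9% and 80.95%) and Pcdhgb6, the one gamma B unit (17.5% and 54.6%). In Pcdhgb4, read only further in, 4 sites at 37721945 to 37721984 averaged 33.7%, below the 58.6% of 3 sites nearer the start, at 37721379 to 37721442, an example chosen after its values were seen. Of the 13 units compared on complete sites, 11 had the later sites higher in each of the 12 mice, the others being Pcdhga10 (11 mice) and Pcdhgc3 (7 mice). The step was largest in Pcdhb1, from 17.5% at 9 sites to 75.3% at 4 sites, and smallest in Pcdhgc3, from 2.50 to 3.70%. Over all genes with a known strand the level was also higher with distance, from 5.26% in the first 500 bp to 12.3% at 1000 to 1500 bp and 25.7% at 2000 to 2500 bp.

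**Figure D4:**
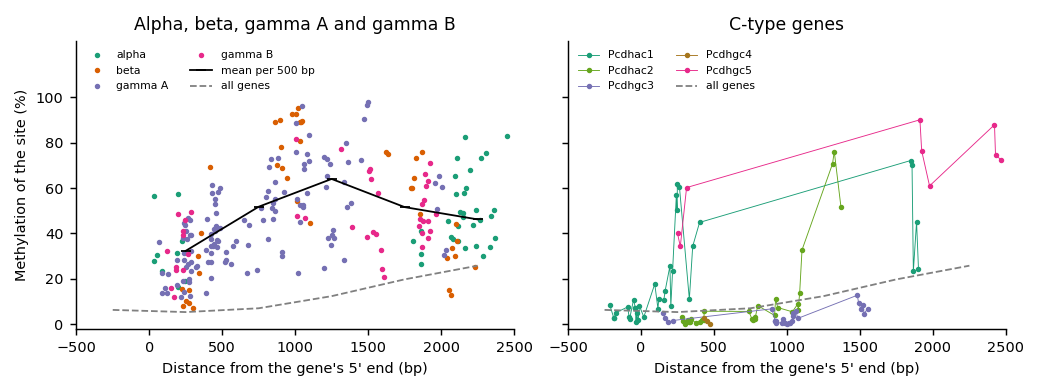
Methylation of each site in percent (mean of 12 mice) by distance in bp from the 5′ end of its gene, for alpha, beta, gamma A and gamma B units (left, with the mean per 500 bp) and C-type units (right, sites of a gene joined by lines), and the mean over all genes with a known strand (dashed). The means on the left go from 32.3% to 64.0% at 1000 to 1500 bp, and on the right no site of Pcdhgc3 is above 12.7%.

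Sites of the arrays outside the units were mostly highly methylated. The 16 such sites between units with complete values averaged 84.9% ± 2.25, from 81.4 to 88.5% in single mice, against 38.0% ± 1.06 for sites within units. Of the 16 sites, 15 lay in the alpha array and 1 in the gamma array, so the value is mostly that of alpha. Of the alpha sites, 8 lay at 36980090 to 36980394, inside the annotated pseudogene Gm36858. The constant parts, taken as the sequence from 2500 bp past the last variable exon's start to the shared 3′ end, held few sites. The alpha constant part had a single site, at 37156343, with 68.9% ± 10.1. The gamma constant part had 3 sites with complete values, at 37825029 to 37825069, which averaged 6.21% ± 3.76, from 1.63 to 16.3%. A further 8 gamma sites at 37822100 to 37822165, with values in 10 mice, averaged between 32.2 and 96.7%, and with them the gamma constant part stood at 42.3%. No exon table was used, so whether these sites lie in an exon is not stated.

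Around the genes, 10 sites at 37655533 to 37655668, upstream of Pcdhga1, averaged 6.87%, with mice between 4.49 and 11.1%. The 11 sites at 37842432 to 37842746, just past the gamma array, averaged 35.5%, from 30.6 to 42.9%. The other stretches of the region averaged 63.7 to 85.8%.

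The spread between mice was also read. Among sites at 20 to 80%, the median SD over the 12 mice was 8.23 points at protocadherin sites and 8.21 points at all sites. Among units at 20 to 80% it was 3.40 and 4.09 points.

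Other genes of the family and genes acting on the arrays lay low. Of 10 non-clustered protocadherins, which are separate adhesion genes without shared constant exons, 7 had a measured unit, at 0.997 to 10.1%. Pcdh8 (10.1% ± 1.94) and Pcdh10 (2.42% ± 1.54) were highest, and Pcdh18 (0.997% ± 0.636) and Pcdh17 (1.17% ± 1.21) lowest. Of 13 genes that act on the arrays, 5 had one, at 1.23 to 2.99%. Smchd1, a silencing factor of the arrays, stood at 2.99% ± 1.95, the methyltransferase gene Dnmt3b at 2.05% ± 1.03, the cohesin subunit gene Smc3 at 1.37% ± 2.46 and the histone methyltransferase gene Setdb1 at 1.23% ± 1.32. Only Pcdh8 fell in the tested range of 5 to 95%, and it did not pass for diet (limma, Benjamini-Hochberg adjusted p = 0.880). Smc3, outside that range and so not tested, was listed at 0 in all 6 HFD mice and at 0.691 to 8.52% in the 6 RD mice (median 1.61%), without overlap, as in 0.628% of all units. RD male 2 held the highest Smc3 value, and without it the mean over mice was 0.722%.

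The diet comparison set offspring of HFD mothers against offspring of RD mothers. No protocadherin feature passed at an adjusted p under 0.05. Rates were tested with limma on a log2 ratio scale with diet and sex as terms, in features with a mean of 5 to 95%, and Benjamini-Hochberg adjustment ran over all autosomal features. Of 325 protocadherin sites tested, 0 were called, beside 0.0102% of all sites, and 14 had an unadjusted p under 0.05 (4.31%), beside 6.53% of all sites. Of these, 7 were higher and 7 lower in HFD, beside 2.88% and 3.66% of all sites. Of 44 tiles of 500 bp, 0 were called (0.0294% of all tiles), and 1 had an unadjusted p under 0.05 (7.81% of all tiles). Of 28 exon units, 0 were called (0.0814% of all units), and 1 had an unadjusted p under 0.05 (8.16% of all units). Pcdhgc3 and Pcdhgc4 were not tested as units because they averaged under 5%.

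By array the diets were close. The alpha array stood at 35.7% ± 1.30 in HFD and 35.3% ± 0.942 in RD (SD, n = 6 each), the beta array at 53.8% ± 1.90 and 52.3% ± 3.04, and the gamma array at 40.0% ± 1.12 and 39.5% ± 1.16. The diets overlapped in all 3. Sites at 20 to 80% over the genome lay the other way, at 55.6% in HFD and 56.6% in RD, and there the diets did not overlap (55.2 to 55.95% and 55.997 to 57.6%). Of the 30 units, 18 were higher and 12 lower in HFD. The median difference was 0.463 points, beside 0.0775 over all units and -0.396 over all units at 20 to 80%. The 95% intervals of the diet difference in single units reached 1.70 to 11.2 points to either side (median 4.11). They are not adjusted for the number of units tested, so differences larger than such limits could also be missed. The 9.80 points of Pcdhb22 lay beyond its limit and did not pass. In 1 of 28 units the interval left out 0, beside 7.89% of all units. No protocadherin unit separated the diets completely, which 0.628% of all units did.

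The unit with the smallest p was Pcdhb22. Its 6 HFD mice ranged from 62.3% through a median of 67.3% to 80.8%, and its 6 RD mice from 46.9% through 59.3% to 68.4%. The groups overlapped, with HFD mice toward the higher end. The difference was 9.80 points (95% interval 0.655 to 18.9), with an unadjusted p of 0.0437 and an adjusted p of 0.598 (limma, Benjamini-Hochberg). The same 6 sites, at 37520148 to 37520221, formed the tile with the smallest p (limma adjusted p = 0.615). Pcdhga9 was next, at 41.6 to 51.9% in HFD (median 49.1%) and 40.5 to 46.2% in RD (median 43.5%), a difference of 4.05 points (95% interval -0.0281 to 8.12; limma adjusted p = 0.685). Pcdhgb1 lay lower in HFD, at 29.3 to 41.1% (median 35.3%) against 37.1 to 40.5% (median 38.8%), a difference of -3.10 points (95% interval -6.32 to 0.121; limma adjusted p = 0.708). The plain difference of the Pcdhgb1 diet means was -3.55 points, and -2.36 points without HFD male 3. Both gamma units overlapped between diets, and HFD mice were spread more widely than RD mice in each.

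**Figure D5:**
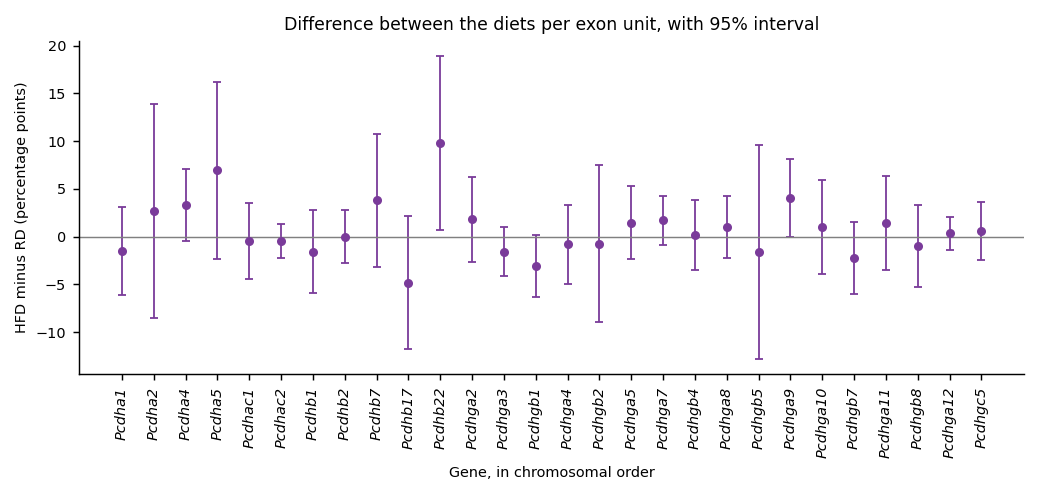
Difference in methylation between HFD and RD offspring, in percentage points, for each tested exon unit in gene order, with 95% intervals from limma on untransformed rates. The interval of Pcdhb22 is the one that leaves out 0, and no unit passed after adjustment.

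Among tiles, the next smallest p were those of Pcdhga9 at 37737206 to 37737421 (45.2% ± 6.23 in HFD mice and 38.9% ± 1.67 in RD mice, with a limma adjusted p of 0.659) and Pcdha1 at 36930318 to 36930371 (36.9% ± 4.17 and 32.1% ± 3.06, limma adjusted p = 0.693). Among sites, position 37737359 in Pcdhga9 stood at 39.1% ± 8.90 in HFD mice and at 23.9% ± 10.48 in RD mice (limma adjusted p = 0.623). Position 37807451 in Pcdhgc3 stood at 2.51% ± 2.94 and 7.51% ± 2.48 (limma adjusted p = 0.629), and position 37265271 in Pcdhb1 at 10.6% ± 3.15 and 19.6% ± 5.98 (limma adjusted p = 0.636). All of these groups overlapped. The diets did not overlap at 1 of 376 sites (0.364% of all sites), position 37737421 in Pcdhga9, chosen after its values were seen, at 42.9 to 60.0% in HFD mice against 29.7 to 40.5% in RD mice (limma adjusted p = 0.689).

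Between the sexes, 0 of 28 units were called with limma (0.108% of all units) and 0 had an unadjusted p under 0.05 (6.4% of all units). Pcdhga12 had the smallest p. Its 7 females lay between 51.3 and 53.5% and its 5 males between 53.7 and 55.0%, so the sexes did not overlap, as in 0.419% of all units. The difference was -2.14 points (95% interval -3.86 to -0.410), and on the log2 ratio scale the limma adjusted p was 0.868. Pcdhgb1 stood at 38.4% ± 2.35 in females and 35.1% ± 3.58 in males (limma adjusted p = 0.876), and Pcdhga5 at 44.5% ± 2.60 and 42.4% ± 3.61 (limma adjusted p = 0.911).

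Whether the diet difference differed between the sexes was tested as an interaction, HFD minus RD in females less HFD minus RD in males, and 0 of 28 units were called with limma (0.0% of all units). An unadjusted p under 0.05 was found in 3 units (10.7%), beside 5.61% of all units. In Pcdhb7, HFD females had 23.9, 28.5 and 28.3% and RD females 31.6, 35.0, 25.7 and 29.8%, while HFD males had 37.1, 30.2 and 32.1% and RD males 17.8 and 19.5%. Females overlapped between diets and males did not. The 3 HFD and 2 RD males did not overlap in 8 of the 30 protocadherin units, beside 23.1% of all units. The interaction was -18.2 points (95% interval -26.4 to -9.94), with an unadjusted p of 0.000622 and an adjusted p of 0.764 (limma, Benjamini-Hochberg). It rests on 2 RD males. In Pcdhgb2 the interaction was 16.3 points (95% interval 2.76 to 29.8; limma adjusted p = 0.847), and in Pcdhb1 it was -8.96 points (95% interval -16.1 to -1.82; limma adjusted p = 0.863). In Pcdhgb2 the RD males had 32.4 and 45.8% and the RD females 23.3 to 29.6%, and HFD female 2 stood at 41.8%. Without RD male 2 the difference of group means behind the Pcdhgb2 interaction was 9.56 points. In Pcdhb1 the HFD females had 29.5 to 34.4% and the HFD males 36.2 to 39.1%, while the RD females had 33.4 to 40.5% and the RD males 30.7 and 36.7%, which overlapped. Without RD male 1 the Pcdhb1 value was -5.96 points.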

How the data were processed

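Methylation was measured by reduced representation bisulfite sequencing in 12 left ventricles, grouped by diet of the mother and by sex as labelled. The authors deposited a table with 1 percent methylation value per CpG and sample, per the file headers, and it was used as deposited. The submitters' processing notes name FastQC, Trim Galore, Bismark 0.19, limma and the build mm10, without roles. A minimum coverage is not given in the sources used here. Gene positions came from the RefSeq gene table of GRCm38. Strand was known for 27025 of the 49997 genes and for 0 of chromosome 18. For every gene without a known strand the lower-coordinate end was taken as the 5′ end.

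Rates as fractions were turned into log2((rate + 0.05)/(1 − rate + 0.05)) and fitted with limma 3.58.1 in R 4.3.3 (two-sided, Benjamini-Hochberg over all autosomal sites, 500 bp tiles or units), and checked on simulated data. Tiles and units needed 3 sites with values in all 12 samples. Intervals in points came from limma on untransformed rates.

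Members, lists and tests were chosen with earlier results of these data known, and the tissue markers and some alternatives after seeing the data. Any unit could be given by its level. Named with more detail were the 3 features with the smallest p per fit, the C-type genes, the 2 highest and 2 lowest units and the most variable unit per array, and the 2 highest and 2 lowest related genes. No sequence is shown.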

Additional observations from a re-analysis of the deposited data

Results flagged for a closer look

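In 68 groups of samples examined, 4 had a sample standing far from the others, and chance flags about 1 in 20, or 3.4 of 68. In the Pcdhac1 unit, HFD female 4 stood at 27.6%, above the other HFD mice at 18.7 to 21.4%. In the Pcdhb17 unit, HFD male 4 stood at 59.6%, below the others at 72.0 to 78.8%. In the Pcdhgb2 unit, HFD female 2 stood at 41.8%, above the others at 25.7 to 30.4%. RD male 1 had a value at 447 protocadherin sites, against 437 to 440 in the other RD mice.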

How the results depend on the processing

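Counts of called protocadherin sites, tiles and units stayed at 0 in all 100 other fits for diet, sex and the interaction, with a lowest limma adjusted p of 0.33 (diet sites), 0.461 (diet tiles), 0.458 (diet units), 0.65 (sex) and 0.457 (interaction). With the replicate block the count was 0 in each. Same-numbered samples correlated at r from -0.0765 to 0.0192 over 13 pairs, and differently numbered ones at -0.1113 to 0.1329 over 40 pairs. HFD female 4 correlated best with RD female 4 (r = 0.0133), just above HFD male 2 (r = 0.0122). Same-numbered samples were not treated as pairs in the main fits. Averaged over units, the beta array and its type stood at 57.0%, the gamma array at 43.0%, all units at 43.9%, C-type units at 20.8% and gamma A units at 46.8%. With every site that had a value, sites between units stood at 82.0% and the gamma constant part at 42.3%. The share of units at 20 to 80% was 68.4% with windows of 1000 bp to each side, 64.7% with 500 bp, and 80 to 83.3% when each sample was left out in turn. The table holds no coverage, so the coverage minimum was not run. Depth is unknown, most beta genes were not read, and differences smaller than the intervals, and some larger ones, could be missed.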
